A study of Saccharomyces cerevisiae with 12 samples.

Results

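The genes of methionine salvage and polyamine synthesis in the budding yeast Saccharomyces cerevisiae were followed in strains labelled by a high or a low amount of SAM (S-adenosylmethionine), from which methyltransferases take their methyl groups. They were chosen by the enzyme step that each encodes, with no measured value in the rule but with earlier results of these data known. They number 9 of the 6907 features listed in either expression table. The salvage genes are MEU1 (YLR017W), MRI1 (YPR118W), MDE1 (YJR024C), UTR4 (YEL038W) and ADI1 (YMR009W), and the polyamine synthesis genes are SPE1 (YKL184W), SPE2 (YOL052C), SPE3 (YPR069C) and SPE4 (YLR146C). RNA was sequenced at 36 h from 4 strains with 3 libraries each. Strain YJ-06 (high SAM) and strain YJ-04 (low SAM) are labelled as both carrying a module for bikaverin, a red fungal polyketide, and strain YJ-09 (high SAM) and strain YJ-08 (low SAM) as both carrying the plasmid pRS416. The 6 rows of the pRS416 table with names of the module's genes reached at most 1.26 FPKM. Of these 6 names, 0 were found in the bikaverin table, so expression of the module in the bikaverin strains could not be checked. Each group is 1 strain, so the level of SAM and other differences between the strains cannot be told apart. Likewise, the module cannot be told apart from other differences between the bikaverin and pRS416 strains, such as their separate tables and sequencing depth. The sources used here do not give how the level of SAM was raised or any other allele of these strains. Nothing in the labels says that the libraries of a group came from separate cultures, so the p-values below reflect the spread among these libraries alone, and that spread may be technical.

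Polyamine synthesis and methionine salvage form a loop. SPE1 encodes ornithine decarboxylase, which makes putrescine, and SPE2 encodes SAM decarboxylase, which turns SAM into the aminopropyl donor. Spermidine synthase (SPE3) and spermine synthase (SPE4) pass the aminopropyl group on and release methylthioadenosine, and the salvage enzymes return its sulfur and methyl group to methionine. MEU1 encodes the phosphorylase that frees adenine from methylthioadenosine, MRI1 the isomerase of the sugar phosphate that is left, MDE1 the dehydratase, UTR4 the enolase-phosphatase and ADI1 the dioxygenase whose product a transaminase turns into methionine.

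Transcript levels are in FPKM (fragments scaled by gene length in kilobases and by library size in M), which can be compared between genes of one table. The 2 tables, 1 for each pair of strains, were normalized separately, so levels in the 2 pairs are given side by side and were not tested against each other. Matched features took up 15.01 to 17.8 M reads per library with the bikaverin module and 40.1 to 45.1 M with pRS416, and the lowest of the 9 genes in any library (SPE4, bikaverin low SAM) rested on 286 reads. Marker genes of haploid cells moved with the pRS416 pair: the summed level of 8 markers was 109 to 127 FPKM in its high-SAM libraries and 913 to 956 FPKM in its low-SAM libraries, with 8 of 8 lower, while 4 alpha-cell markers summed to 63.6 to 74.6 FPKM and 966 to 1042 FPKM, with 4 of 4 lower. In the bikaverin pair the haploid markers summed to 637 to 750 FPKM at high SAM and 605 to 651 FPKM at low SAM, and the alpha-cell markers to 1136 to 2069 FPKM and 491 to 611 FPKM. The 7 a-cell markers summed to 81.3 to 94.8 FPKM in bikaverin high SAM, 95.6 to 102 FPKM in bikaverin low SAM, 108 to 123 FPKM in pRS416 high SAM and 144 to 150 FPKM in pRS416 low SAM. Of these 7, 4 were called lower and 2 higher (BAR1 and ASG7) in the pRS416 pair, and 1 lower in the bikaverin pair. Over all features of the pRS416 pair, 38.4% were called lower and 39.1% higher. No marker was at 0 in any group, and the part of these differences in the results below was not tested. In such bulk samples fewer cells of a type and less RNA per cell cannot be told apart.

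In both pairs the high-SAM strain had more transcript of MEU1 and UTR4 in the salvage arm and of SPE2 and SPE4 in the polyamine arm, and less of MDE1 and ADI1. SPE3 went opposite ways, higher at high SAM with the bikaverin module and lower at high SAM with pRS416. In the bikaverin pair 5 of the 9 genes were called higher and 2 lower at an adjusted p below 0.05 (limma with Benjamini-Hochberg adjustment over all features tested), against 28.8% of all 6459 features called higher, 27.9% called lower and 56.7% called in either direction. In the pRS416 pair 5 were called higher and 4 lower, against 39.1% of 6342 features called higher, 38.4% called lower and 77.5% called either way. Since most features of these tables were called, a count of called genes says little about these 9 in particular. The median log2 fold change of the 9 genes, high over low SAM on the log2(FPKM + 1) scale, was 0.41 in the bikaverin pair and 0.17 in the pRS416 pair, beside 0.01 and -0.01 over all features tested. The median size of the change, whatever its sign, was 0.48 for the 9 genes and 0.41 for all features in the bikaverin pair, and 0.68 and 0.56 in the pRS416 pair.

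**Figure D1:**
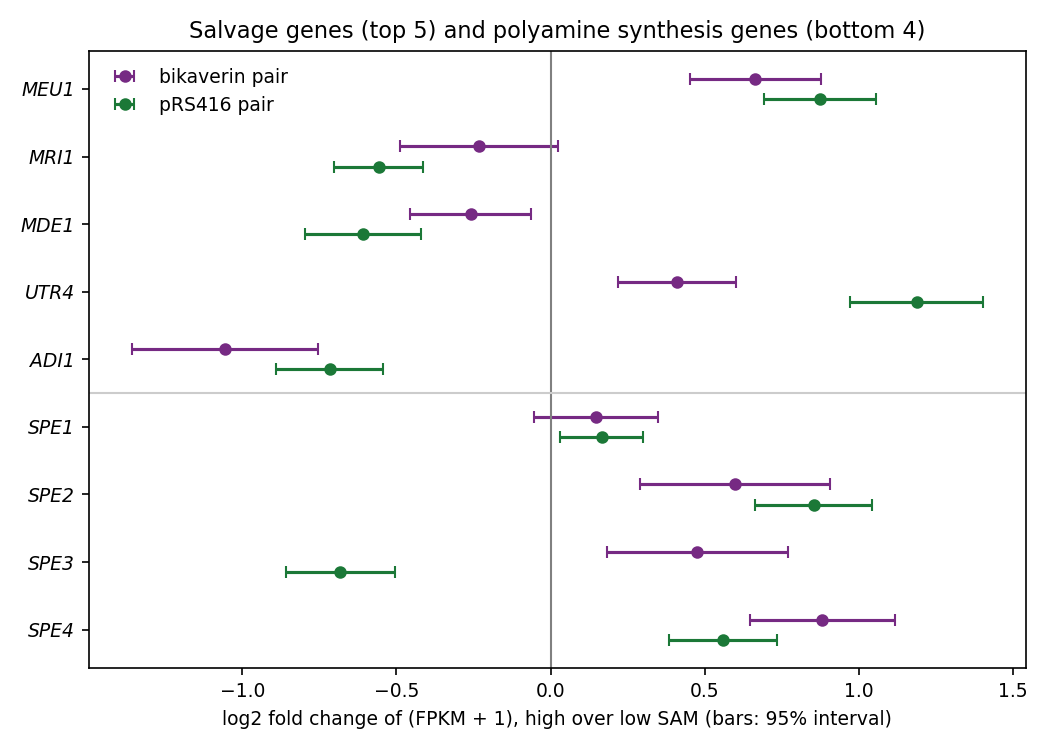
Log2 fold change of each gene on the log2(FPKM + 1) scale, high over low SAM, with 95% intervals, for the bikaverin pair and the pRS416 pair. SPE3 lies at 0.48 in the bikaverin pair and at -0.68 in the pRS416 pair, while MEU1, UTR4, SPE2 and SPE4 lie above 0 and MDE1 and ADI1 below 0 in both.

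Polyamine synthesis starts from ornithine, and SPE1 (chromosome XI, 96757 to 98157, plus strand, build R64; 1 exon of 1401 bases) changed least. It had 74.0, 74.5 and 66.8 FPKM in the bikaverin high-SAM libraries, against 66.2, 60.1 and 67.8 FPKM in the low-SAM libraries. These groups overlap, and the difference did not pass the test (71.8 ± 4.34 and 64.7 ± 4.08 FPKM, SD, n = 3 each; log2 fold change 0.15, 95% interval -0.05 to 0.35, limma adjusted p = 0.18). With pRS416, SPE1 had 58.2, 58.1 and 60.7 FPKM in the high-SAM libraries, against 54.0, 53.1 and 50.4 FPKM in the low-SAM libraries. Here the groups stood apart by a small margin, and SPE1 was called higher by 1.12-fold (log2 fold change 0.17, SE 0.060, limma adjusted p = 0.030). That call was lost without high-SAM replicate 3, low-SAM replicate 2 or low-SAM replicate 3 (adjusted p = 0.057, 0.073 and 0.12) and with upper-quartile scaling (0.10).

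SPE2 (chromosome XV, 232446 to 233636, minus strand, 1 exon of 1191 bases), whose enzyme commits SAM to polyamines, was higher at high SAM in both pairs. It had 67.8, 52.0 and 50.8 FPKM in the bikaverin high-SAM libraries, against 39.5, 39.0 and 32.7 FPKM in the low-SAM libraries. With pRS416 it had 36.1, 32.6 and 38.9 FPKM at high SAM, against 20.3, 19.8 and 18.0 FPKM at low SAM. Every high-SAM library exceeded every low-SAM library of its pair. The means were 56.9 ± 9.46 and 37.0 ± 3.79 FPKM in the bikaverin pair (1.54-fold, log2 fold change 0.60, SE 0.13, limma adjusted p = 0.0063). They were 35.9 ± 3.18 and 19.4 ± 1.20 FPKM in the pRS416 pair (1.85-fold, log2 fold change 0.85, SE 0.084, limma adjusted p = 1.2e-05). SPE2 was the lowest of the 9 genes in the pRS416 low-SAM strain.

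SPE3 (chromosome XVI, 684556 to 685437, minus strand, 1 exon of 882 bases), for spermidine synthase, changed in opposite directions in the 2 pairs. With the bikaverin module it had 126, 107 and 109 FPKM in the high-SAM libraries, against 87.6, 90.6 and 68.3 FPKM in the low-SAM libraries. With pRS416 it had 67.7, 60.5 and 70.2 FPKM in the high-SAM libraries, against 99.4, 113 and 108 FPKM in the low-SAM libraries. Neither pair overlapped: all bikaverin high-SAM libraries were the higher ones, and all pRS416 high-SAM libraries were the lower ones. SPE3 rose in the bikaverin pair (114 ± 10.5 and 82.2 ± 12.1 FPKM, 1.39-fold, log2 fold change 0.48, SE 0.13, limma adjusted p = 0.014). It fell in the pRS416 pair (66.1 ± 5.08 and 107 ± 6.66 FPKM, 0.620-fold, log2 fold change -0.68, SE 0.078, limma adjusted p = 3.4e-05).

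The stretch upstream of SPE3 is shown because this gene alone of the 9 was called in opposite directions. The window searched in each gene ran from 250 bases before to 50 bases after its annotated start, on both strands, in the R64 genome. The 160 bases printed end 91 bases before the start (chrXVI:685528-685687, minus strand), and capitals mark CCAAT, the core bound by the Hap complex, 211 bases before the start and on the other strand 116 bases before it.
SPE3: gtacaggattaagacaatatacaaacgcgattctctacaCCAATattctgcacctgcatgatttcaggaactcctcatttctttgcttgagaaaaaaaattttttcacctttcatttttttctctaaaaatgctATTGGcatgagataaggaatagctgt
CCAAT was found in 3 of the 9 windows (SPE3, MDE1 at 101 bases and UTR4 at 36 bases before the start) and in 43.3% of 6001 promoter windows of the genome. CACGTG, the core bound by Cbf1, was in 0 of the 9 windows and in 2.92% of all windows. These matches describe the letters only.

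SPE4 (chromosome XII, 432823 to 433725, minus strand, 1 exon of 903 bases), for spermine synthase, was higher at high SAM in both pairs. It had 43.0, 38.7 and 34.7 FPKM in the bikaverin high-SAM libraries, against 19.3, 21.2 and 21.1 FPKM in the low-SAM libraries. With the plasmid it had 37.1, 33.8 and 36.0 FPKM at high SAM, against 24.3, 25.5 and 21.8 FPKM at low SAM. The groups of each pair stood apart. The change was 1.89-fold in the bikaverin pair (38.8 ± 4.15 and 20.6 ± 1.05 FPKM, log2 fold change 0.88, SE 0.10, limma adjusted p = 0.00028) and 1.49-fold in the pRS416 pair (35.6 ± 1.65 and 23.9 ± 1.90 FPKM, log2 fold change 0.56, SE 0.077, limma adjusted p = 0.00012). SPE3 and SPE4 encode related enzymes, but their genes share only a stretch of 93 bases at 76.3% identity, and none of the 9 genes has another site in the genome of at least 90% identity over at least 50% of its length.

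**Figure D2:**
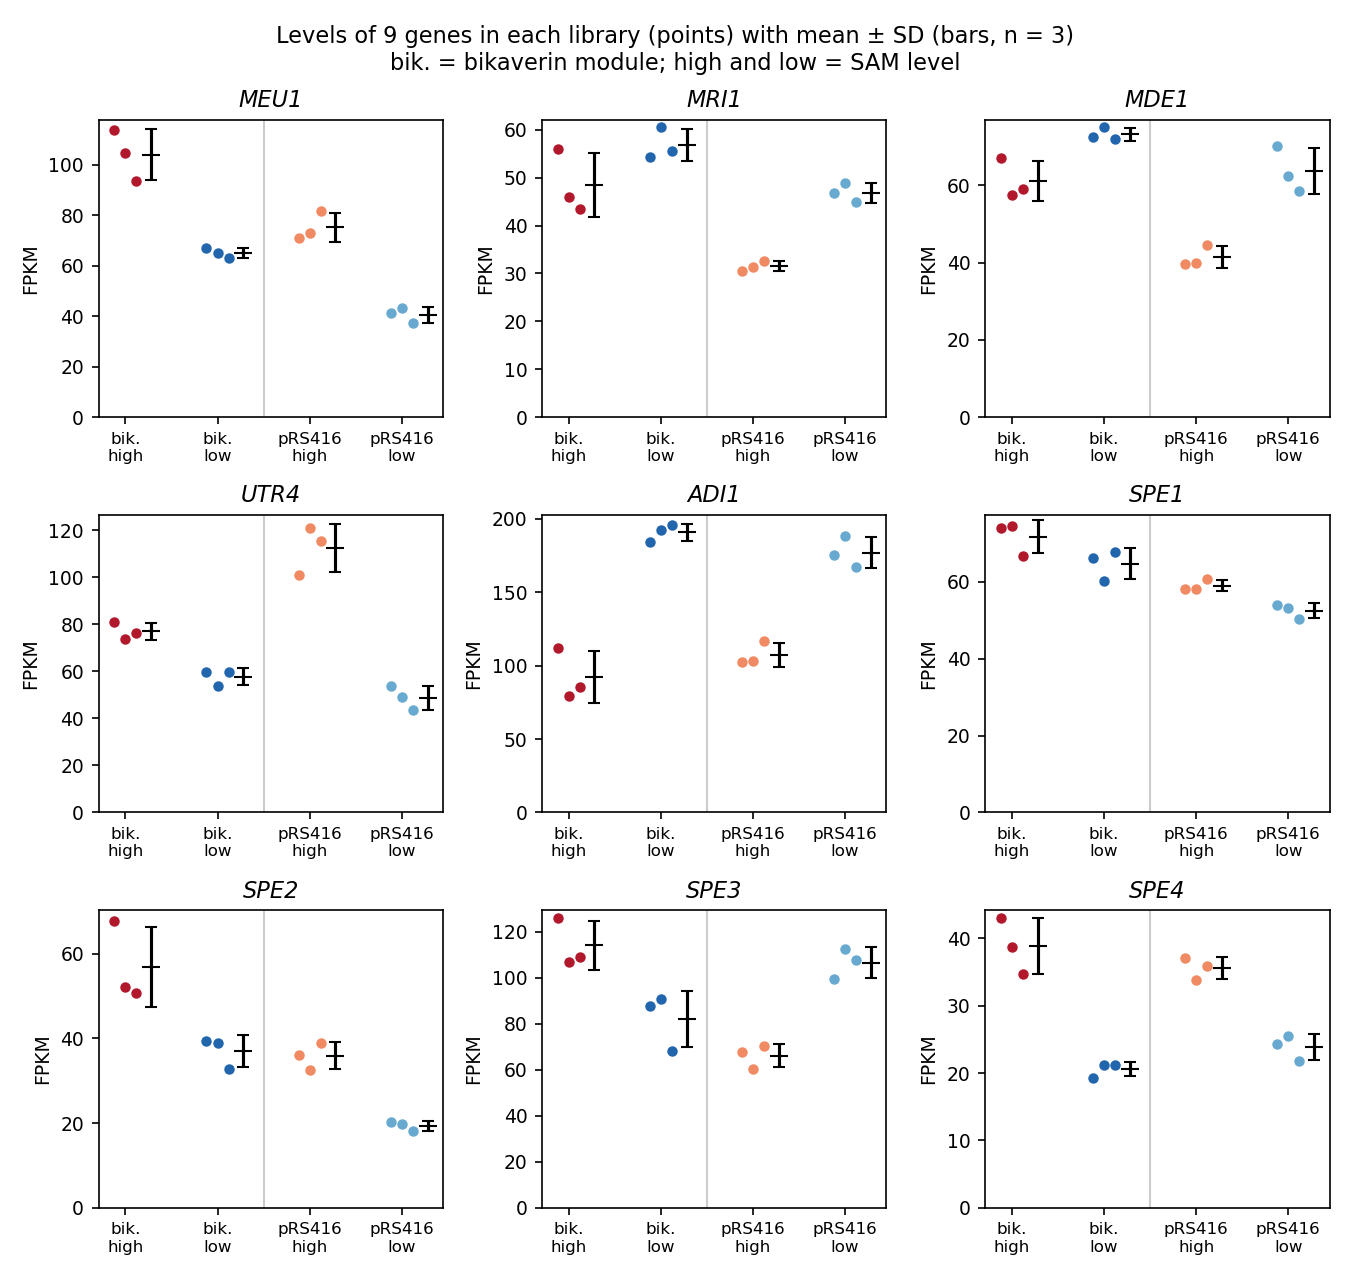
FPKM of each of the 9 genes in each library (points) with mean and SD (bars, n = 3) in bikaverin high SAM, bikaverin low SAM, pRS416 high SAM and pRS416 low SAM. The high-SAM libraries of SPE3 lie above the low-SAM ones in the bikaverin pair (114 and 82.2 FPKM on average) and below them in the pRS416 pair (66.1 and 107 FPKM).

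Salvage begins with MEU1 (chromosome XII, 177608 to 178621, plus strand, 1 exon of 1014 bases), which was higher at high SAM in both pairs. It had 114, 105 and 93.7 FPKM in the bikaverin high-SAM libraries, against 67.1, 65.0 and 63.0 FPKM in the low-SAM libraries. In the pRS416 pair it had 70.8, 72.8 and 81.7 FPKM at high SAM, against 41.3, 43.1 and 37.2 FPKM at low SAM. The low-SAM libraries were the lower ones throughout. MEU1 rose 1.60-fold in the bikaverin pair (104 ± 10.02 and 65.1 ± 2.06 FPKM, log2 fold change 0.66, SE 0.091, limma adjusted p = 0.00065) and 1.85-fold in the pRS416 pair (75.1 ± 5.80 and 40.5 ± 3.04 FPKM, log2 fold change 0.87, SE 0.080, limma adjusted p = 7.8e-06).

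MRI1 (chromosome XVI, 767752 to 768987, plus strand, 1 exon of 1236 bases), for the next enzyme, did not follow MEU1. It had 56.0, 45.9 and 43.4 FPKM in the bikaverin high-SAM libraries, against 54.4, 60.6 and 55.5 FPKM in the low-SAM libraries. High-SAM replicate 1 lay inside the low-SAM range, so the groups overlap, and the difference did not pass the test (48.4 ± 6.69 and 56.8 ± 3.32 FPKM, log2 fold change -0.23, 95% interval -0.49 to 0.02, limma adjusted p = 0.11). Without that library it did (log2 fold change -0.34, adjusted p = 0.011). In the pRS416 pair MRI1 had 30.4, 31.4 and 32.6 FPKM at high SAM, against 46.7, 48.9 and 44.8 FPKM at low SAM. There the groups stood apart and MRI1 fell (31.5 ± 1.07 and 46.8 ± 2.04 FPKM, 0.672-fold, log2 fold change -0.56, SE 0.063, limma adjusted p = 3.3e-05).

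MDE1 (chromosome X, 470230 to 470964, minus strand, 1 exon of 735 bases), for the dehydratase, was lower at high SAM. It had 67.1, 57.4 and 59.1 FPKM in the bikaverin high-SAM libraries, against 72.6, 75.2 and 72.0 FPKM in the low-SAM libraries. Its values with pRS416 were 39.8, 39.8 and 44.7 FPKM at high SAM, against 70.3, 62.5 and 58.6 FPKM at low SAM. The groups stood apart in both pairs, by less in the bikaverin pair. MDE1 fell to 0.835-fold with the module (61.2 ± 5.14 and 73.3 ± 1.70 FPKM, log2 fold change -0.26, SE 0.085, limma adjusted p = 0.032) and to 0.649-fold with pRS416 (41.4 ± 2.84 and 63.8 ± 5.94 FPKM, log2 fold change -0.61, SE 0.083, limma adjusted p = 0.00012). The bikaverin call was lost on leaving out any library other than high-SAM replicate 1, namely high-SAM replicate 2 or 3 or low-SAM replicate 1, 2 or 3 (adjusted p up to 0.12).

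UTR4 (chromosome V, 80462 to 81145, plus strand, 1 exon of 684 bases), for the enolase-phosphatase, was higher at high SAM. It had 81.0, 74.0 and 76.2 FPKM in the bikaverin high-SAM libraries, against 59.7, 53.7 and 59.9 FPKM in the low-SAM libraries. The plasmid strains had 101, 121 and 115 FPKM at high SAM, against 53.7, 49.3 and 43.5 FPKM at low SAM. No low-SAM library reached the range of its high-SAM partners. UTR4 rose 1.33-fold in the bikaverin pair (77.0 ± 3.58 and 57.8 ± 3.56 FPKM, log2 fold change 0.41, SE 0.082, limma adjusted p = 0.0039) and 2.30-fold in the pRS416 pair (112 ± 10.2 and 48.9 ± 5.15 FPKM, log2 fold change 1.19, SE 0.095, limma adjusted p = 3.0e-06). Its divergent neighbour CYC7, for an isoform of cytochrome c, begins 484 bases away and averaged 88.0 ± 15.2 FPKM in bikaverin high SAM, 37.8 ± 4.57 FPKM in bikaverin low SAM, 2141 ± 341 FPKM in pRS416 high SAM and 88.8 ± 2.03 FPKM in pRS416 low SAM.

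ADI1 (chromosome XIII, 284102 to 284641, plus strand, 1 exon of 540 bases), for the last enzyme before the transaminases, was lower at high SAM. It had 112, 79.2 and 85.6 FPKM in the bikaverin high-SAM libraries, against 185, 193 and 196 FPKM in the low-SAM libraries. Its values with pRS416 were 102, 103 and 117 FPKM at high SAM, against 176, 188 and 167 FPKM at low SAM. The low-SAM libraries were well above the high-SAM ones in both pairs. ADI1 fell to 0.483-fold with the module (92.3 ± 17.5 and 191 ± 5.72 FPKM, log2 fold change -1.06, SE 0.13, limma adjusted p = 0.00039) and to 0.607-fold with pRS416 (107 ± 7.98 and 177 ± 10.6 FPKM, log2 fold change -0.72, SE 0.076, limma adjusted p = 2.1e-05). A change of at least 1 in either direction on the log2 scale was reached by ADI1 in the bikaverin pair and by UTR4 in the pRS416 pair, 1 of the 9 genes in each, beside 16.6% and 26.6% of all features tested.

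The stretches upstream of MEU1 and ADI1 are shown together because they share a motif while the genes changed in opposite directions in both pairs. CTGTGG, the core bound by Met31 and Met32, regulators of sulfur genes, lies 148 bases before the start of MEU1 and, on the other strand, 146 bases before the start of ADI1. Capitals mark it in the 160 bases that end 91 bases before each start (chrXII:177358-177517, plus strand, and chrXIII:283852-284011, plus strand, build R64).
MEU1: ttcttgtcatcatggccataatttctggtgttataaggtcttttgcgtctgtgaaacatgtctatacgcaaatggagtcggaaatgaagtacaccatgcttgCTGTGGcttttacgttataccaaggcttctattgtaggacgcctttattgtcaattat
ADI1: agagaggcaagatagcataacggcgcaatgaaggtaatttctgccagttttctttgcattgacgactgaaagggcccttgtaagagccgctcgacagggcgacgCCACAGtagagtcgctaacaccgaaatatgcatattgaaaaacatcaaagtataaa
CTGTGG was in these 2 of the 9 windows and in 6.85% of all 6001. TGACTC, the core bound by Gcn4, was in 1 of the 9 (ADI1, starting at base 33 of the gene) and in 7.98% of all. The first bases shown for MEU1 lie in the neighbouring gene PML1, which starts 191 bases from MEU1 on the other strand and averaged 70.7 ± 0.614 and 69.2 ± 6.44 FPKM in bikaverin high and low SAM and 60.7 ± 3.48 and 56.2 ± 0.336 FPKM in pRS416 high and low SAM.

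Whether the change with SAM level differed between the pairs was tested directly, as the bikaverin log2 fold change minus the pRS416 log2 fold change over all 12 libraries. The difference was positive for 4 genes and negative for 1, while 27.8% of 6400 features were called positive, 29.0% negative and 56.8% either way. SPE3 had the largest difference of the 9 (1.16, 95% interval 0.82 to 1.49, limma adjusted p = 4.9e-05), and it was the only one of the 9 with a difference of at least 1 in size, as 20.7% of all features had. UTR4 rose less with the bikaverin module than with pRS416 (difference -0.78, 95% interval -1.06 to -0.49, limma adjusted p = 0.00029). Both differences were called in all 18 alternative fits.

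The other 3 called differences were smaller. MDE1 fell less with the module (difference 0.35, limma adjusted p = 0.026), a call lost in 4 of the 12 fits that left out a library: bikaverin high-SAM replicate 1, pRS416 high-SAM replicate 1 or 2, or pRS416 low-SAM replicate 1. MRI1 (0.32, limma adjusted p = 0.046) was below the threshold only by a little, and its call was lost in 9 of the 12, all but those without bikaverin high-SAM replicate 2 or 3 or bikaverin low-SAM replicate 2. SPE4 rose more with the module (0.32, limma adjusted p = 0.046), and its call was kept in 2 of the 12, those without bikaverin high-SAM replicate 3 or pRS416 low-SAM replicate 3. Differences that did not pass were -0.21 for MEU1 (95% interval -0.48 to 0.06, adjusted p = 0.16), -0.26 for SPE2 (-0.61 to 0.10, adjusted p = 0.20), -0.34 for ADI1 (-0.68 to 0.00, adjusted p = 0.083) and -0.02 for SPE1 (-0.23 to 0.20, adjusted p = 0.89). Without bikaverin high-SAM replicate 1, the highest of its group for 8 of the 9 genes, ADI1 passed (-0.49, adjusted p = 0.0022) and SPE2 passed (-0.39, adjusted p = 0.028).

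Ratios within a library, which no scaling of the library can move, show how the balance between steps differed. The level of MEU1 over that of MRI1 was 2.16 ± 0.124 in bikaverin high SAM and 1.15 ± 0.0812 in bikaverin low SAM, and 2.38 ± 0.108 in pRS416 high SAM and 0.865 ± 0.0308 in pRS416 low SAM (SD, n = 3 each). UTR4 over ADI1 was 0.849 ± 0.112 and 0.303 ± 0.0226 in the bikaverin pair, high and low SAM, and 1.05 ± 0.105 and 0.276 ± 0.0259 in the pRS416 pair. Neither of these ratios overlapped between high- and low-SAM libraries of a pair. UTR4 over MDE1, neighbours in the pathway, was 1.26 ± 0.0466 and 0.789 ± 0.0660 in the bikaverin pair and 2.72 ± 0.275 and 0.765 ± 0.0231 in the pRS416 pair. MRI1 over MDE1, which are consecutive steps too, overlapped in both pairs, at 0.790 ± 0.0517 and 0.775 ± 0.0285 at high and low SAM with the module and 0.761 ± 0.0305 and 0.737 ± 0.0630 with pRS416.

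In the polyamine arm, SPE4 over SPE3 was 0.340 ± 0.0218 and 0.255 ± 0.0480 at high and low SAM in the bikaverin pair, and 0.540 ± 0.0248 and 0.225 ± 0.0214 in the pRS416 pair. SPE2 over SPE3 was 0.496 ± 0.0369 and 0.453 ± 0.0243 in the bikaverin pair, with overlap, and 0.542 ± 0.0112 and 0.182 ± 0.0193 in the pRS416 pair, without overlap. MEU1 over SPE2, the genes that handle methylthioadenosine and make the donor it comes from, was 1.84 ± 0.166 and 1.77 ± 0.142 at high and low SAM in the bikaverin pair, and 2.10 ± 0.136 and 2.09 ± 0.0731 in the pRS416 pair, with overlap in both. The ratios are given as descriptions and were not tested.

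**Figure D3:**
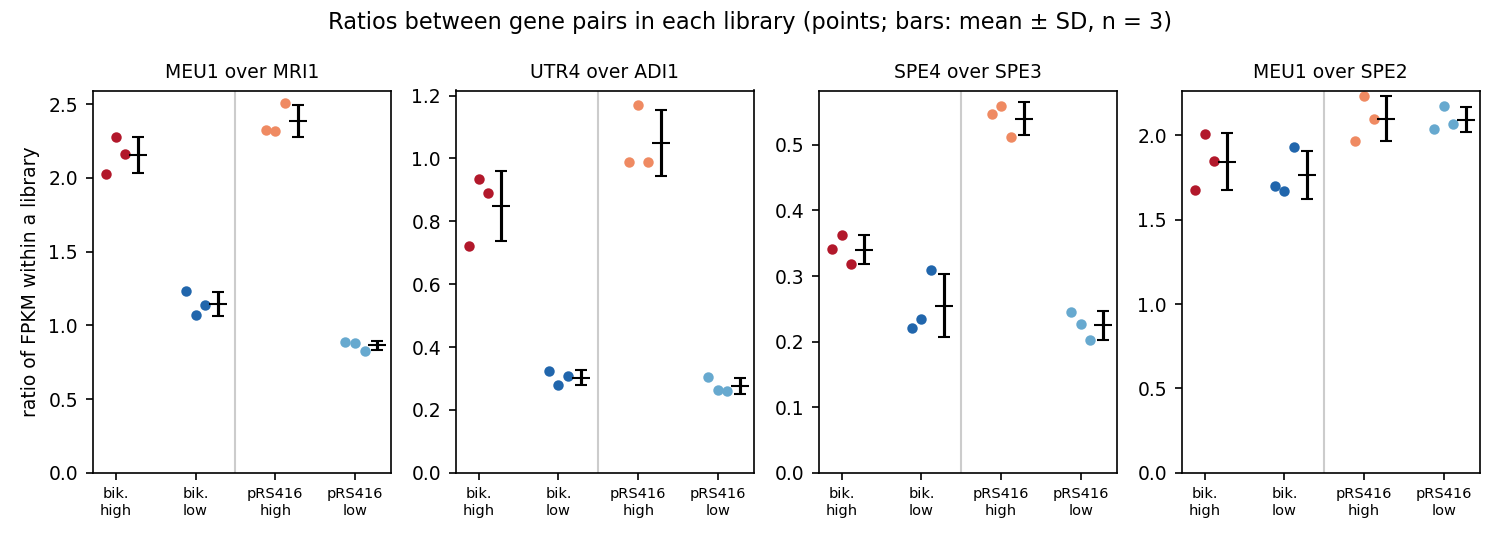
Ratio of FPKM between 4 pairs of genes in each library (points) with mean and SD (bars, n = 3), in bikaverin high SAM, bikaverin low SAM, pRS416 high SAM and pRS416 low SAM. MEU1 over MRI1, UTR4 over ADI1 and SPE4 over SPE3 are higher in every high-SAM library than in any low-SAM library of the same pair, and MEU1 over SPE2 overlaps between high and low SAM. The margin is narrow for SPE4 over SPE3 in the bikaverin pair (lowest 0.318 at high SAM, highest 0.310 at low SAM).

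The levels were also summed over each arm. The 5 salvage genes summed to 383 ± 40.6 FPKM in bikaverin high SAM and 444 ± 4.77 FPKM in bikaverin low SAM, and to 368 ± 23.3 FPKM in pRS416 high SAM and 377 ± 22.4 FPKM in pRS416 low SAM. The salvage sum joins genes that moved in opposite directions. In the bikaverin pair ADI1 had 92.3 FPKM at high SAM and 191 FPKM at low SAM. MRI1 and MDE1 also had lower means at high SAM there, while MEU1 and UTR4 had higher ones. The 4 polyamine genes summed to 282 ± 26.0 FPKM in bikaverin high SAM and 204 ± 12.6 FPKM in bikaverin low SAM, and to 197 ± 10.6 FPKM in pRS416 high SAM and 202 ± 7.46 FPKM in pRS416 low SAM. With pRS416 both sums overlapped between high and low SAM, although all 9 genes were called, as were 77.5% of all features. The SPE1 call was lost in 3 of the 6 fits of that pair that left out a library.

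The order of the levels also differed between strains. ADI1 was the highest of the 9 genes in both low-SAM strains, at percentile 86.7 of all features in the bikaverin one and 86.4 in the pRS416 one. In pRS416 low SAM the order after ADI1 was SPE3, MDE1, SPE1, UTR4, MRI1, MEU1, SPE4 and SPE2, with SPE1, UTR4 and MRI1 overlapping their neighbours. In bikaverin low SAM it was SPE3, MDE1, MEU1, SPE1, UTR4, MRI1, SPE2 and SPE4, where SPE3 and MDE1, MEU1 and SPE1, and UTR4 and MRI1 did not differ beyond their spread. In pRS416 high SAM the order was UTR4, ADI1, MEU1, SPE3, SPE1, MDE1, SPE2, SPE4 and MRI1, with UTR4 and ADI1, SPE3 and SPE1, and SPE2 and SPE4 overlapping. In bikaverin high SAM it was SPE3, MEU1, ADI1, UTR4, SPE1, MDE1, SPE2, MRI1 and SPE4, and every neighbour but MRI1 and SPE4 overlapped.

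Across the 12 libraries, with each table centred on its own mean, the 9 genes fell along opposed directions. The Pearson correlation was 0.977 between MEU1 and SPE2, 0.930 between MEU1 and UTR4 and 0.925 between MEU1 and SPE4. MDE1 and MRI1 correlated at 0.955, and ADI1 and SPE4 at -0.901. SPE3 had weaker correlations with the other 8 genes, between -0.56 (UTR4) and 0.54 (MRI1), with 0.50 for MDE1, 0.03 for ADI1 and -0.24 for MEU1. These points share strain, depth and table, so the values describe the libraries only.

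By the same measure over 6268 features, the genes most like MEU1 were FRS2 (0.993), for a subunit of phenylalanyl-tRNA synthetase, ERG13 (0.990), for HMG-CoA synthase of sterol synthesis, and DYS1 (0.988), for deoxyhypusine synthase, which uses spermidine. ERG13 also led for SPE2 (0.987), followed by THS1 (0.986), for threonyl-tRNA synthetase, and PPN2 (0.984). Most like SPE4 were SQT1 (0.993), IMD4 (0.989) and MES1 (0.988), for methionyl-tRNA synthetase, and most like UTR4 were ARE2 (0.990), MRPL7 (0.989) and OXA1 (0.988). Genes that went down at high SAM had other companions: PRM1 (0.991), YIP4 (0.978) and SYF2 (0.977) for MDE1, ASN1 (0.974), YIL089W (0.970) and YHR214C-B (0.969) for MRI1, and WWM1 (0.992), BNA5 (0.986) and DIT1 (0.985) for ADI1. The closest genes to SPE3 were YHL012W (0.973), FAR1 (0.967), which is one of the haploid markers above, and RCR1 (0.966). SPE1, with the smallest changes, had the weakest likeness, to SDA1 (0.912), HBS1 (0.910) and UIP5 (0.894).

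Genes around the loop were counted in lists of the same pathways. Beside every list count below stand the shares of all features. In the bikaverin pair 28.8% were called higher and 27.9% lower (56.7% either way). In the pRS416 pair 39.1% were called higher and 38.4% lower (77.5% either way). With shares this large, counts in such short lists say little on their own. Of the 4 transaminases that can finish methionine salvage, 2 were called higher and 1 lower in the bikaverin pair, and 2 higher and 2 lower in the pRS416 pair. The mitochondrial BAT1 averaged 543 ± 119 FPKM in bikaverin high SAM and 149 ± 17.6 FPKM in bikaverin low SAM (log2 fold change 1.84, limma adjusted p = 8.2e-05), and 354 ± 55.3 FPKM in pRS416 high SAM and 93.5 ± 1.83 FPKM in pRS416 low SAM (1.90, limma adjusted p = 3.2e-07). Its cytosolic counterpart BAT2 went the other way, at 102 ± 15.6 and 768 ± 71.0 FPKM at high and low SAM in the bikaverin pair (log2 fold change -2.91, limma adjusted p = 2.7e-06) and 86.2 ± 9.66 and 324 ± 22.4 FPKM in the pRS416 pair (-1.90, limma adjusted p = 1.1e-07). ARO8, for an aromatic transaminase, rose in the bikaverin pair (0.76, limma adjusted p = 0.020), a call lost without any 1 of its low-SAM libraries (0.054 to 0.056), and in the pRS416 pair (0.45, limma adjusted p = 0.00024). ARO9 fell in the pRS416 pair (-1.44, limma adjusted p = 4.4e-06) and had -0.91 in the bikaverin pair, not called (0.25, and 0.0498 without low-SAM replicate 3). Its difference between pairs did not pass (limma adjusted p = 0.55).

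Adenine freed by MEU1 is taken up by adenine salvage, where 2 of 3 genes were called higher in the bikaverin pair and 3 of 3 in the pRS416 pair. AAH1, for adenine deaminase, averaged 97.5 ± 36.0 and 29.8 ± 4.0 FPKM at high and low SAM in the bikaverin pair (log2 fold change 1.63) and 36.3 ± 3.02 and 9.90 ± 1.55 FPKM in the pRS416 pair (1.78). APT1, for adenine phosphoribosyltransferase, rose by 0.69 and 0.58 on the log2 scale. APT2 was called only in the pRS416 pair (0.23), with -0.02 in the bikaverin pair, and the difference itself did not pass (limma adjusted p = 0.12).

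Among the genes that use or control polyamines, 2 of 3 were called higher in the bikaverin pair, and 0 higher and 1 lower in the pRS416 pair. OAZ1, for the antizyme that targets ornithine decarboxylase, averaged 116 ± 1.65 and 59.3 ± 2.96 FPKM at high and low SAM in the bikaverin pair (log2 fold change 0.96, limma adjusted p = 4.8e-05). In the pRS416 pair it averaged 161 ± 45.4 and 122 ± 5.17 FPKM, which did not pass (0.36, limma adjusted p = 0.087) but did without high-SAM replicate 3 (0.59, adjusted p = 0.00057). The OAZ1 difference between pairs was called with all libraries (0.59, limma adjusted p = 0.033). FMS1, for the polyamine oxidase that leads to pantothenate, had 0.23 in the bikaverin pair (limma adjusted p = 0.041, lost on leaving out any 1 library) and 0.17 in the pRS416 pair (0.051, and 0.013 without high-SAM replicate 2). PAA1, for the polyamine acetyltransferase, fell in the pRS416 pair (-0.31, limma adjusted p = 0.00072) and had -0.11 in the bikaverin pair, not called, and the difference did not pass (0.16).

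Spermidine is the substrate of hypusination, the modification of translation factor eIF5A, and 2 of the 3 genes tested were called higher in each pair. DYS1 averaged 138 ± 9.45 and 73.8 ± 5.50 FPKM at high and low SAM in the bikaverin pair (log2 fold change 0.89) and 82.9 ± 6.79 and 41.7 ± 2.23 FPKM in the pRS416 pair (0.97). LIA1, for deoxyhypusine hydroxylase, rose by 1.02 and 0.43, and the difference between pairs was called (0.60, limma adjusted p = 0.040). ANB1, the eIF5A isoform of cells short of oxygen, was close to the filter of 1 FPKM at 1.87 ± 0.670 and 1.96 ± 0.648 FPKM in the bikaverin pair and 2.04 ± 0.636 and 3.17 ± 0.269 FPKM in the pRS416 pair (limma adjusted p = 0.055, and 0.030 without high-SAM replicate 3), and it shares 91.1% identity with HYP2, which was not analysed here.

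Of the 8 genes that supply or use ornithine, 2 were called higher and 1 lower in the bikaverin pair, and 4 higher and 3 lower in the pRS416 pair. CAR1, for arginase, which makes ornithine, rose in both (log2 fold change 0.77 and 1.46), as did ARG8, of ornithine synthesis (0.59 and 1.08), whose bikaverin call was lost without low-SAM replicate 1 (0.48, adjusted p = 0.11) or 2 (0.59, adjusted p = 0.078). CAR2, for ornithine transaminase, fell in both (-0.58 and -0.60). ARG3, which draws ornithine into arginine, fell in the pRS416 pair (-2.32) and had 0.36 in the bikaverin pair, not called (difference called, limma adjusted p = 0.00011). Of the 5 genes listed for pantothenate and its precursors, among them beta-alanine, 2 were called higher in the bikaverin pair. In the pRS416 pair 2 were called higher and 2 lower. PAN6, for the step that uses beta-alanine, was not called in either pair (0.15 and 0.04). PAN5 rose in both (0.52 and 1.61). ECM31 had 0.35 in the bikaverin pair (limma adjusted p = 0.046), a call lost without any of the 3 high-SAM libraries or without low-SAM replicate 2 or 3 (0.052 to 0.13), and rose in the pRS416 pair (0.45). ALD2 and ALD3, which share 91.8% identity so that their reads are uncertain, had -0.88 and -2.88 in the pRS416 pair, both called. In the bikaverin pair they had -0.23 (not called, limma adjusted p = 0.094, and 0.049 without high-SAM replicate 3) and -0.37 (not called, limma adjusted p = 0.069, and 0.016 without low-SAM replicate 2). Both differences between pairs were called (limma adjusted p = 0.0032 and 2.0e-07).

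Transport genes made the largest changes in these lists. Of 6 genes of polyamine uptake and its kinases, 3 were called higher and 2 lower in the bikaverin pair, and 1 higher and 3 lower in the pRS416 pair. GAP1, the general amino acid permease, fell in both (log2 fold change -1.79 and -4.46), as did AGP2 (-0.42 and -0.69). SAM3, which also imports SAM, rose in the bikaverin pair (1.41) and did not pass in the pRS416 pair (0.21, limma adjusted p = 0.058, and 0.0056 without high-SAM replicate 2 or 0.049 without low-SAM replicate 1), and DUR3 had 1.64 and 0.02, the first called. These bikaverin and pRS416 changes differed for SAM3 (limma adjusted p = 2.0e-05) and DUR3 (1.1e-05). The kinase gene SKY1 rose in the pRS416 pair (0.81) and had 0.27 in the bikaverin pair (limma adjusted p = 0.040), a call lost on leaving out any library other than low-SAM replicate 3. Of the 5 export genes TPO1 to TPO5, 2 were called higher and 1 lower in the bikaverin pair, and 3 higher and 2 lower in the pRS416 pair. TPO2 averaged 575 ± 64.8 and 27.2 ± 5.47 FPKM at high and low SAM in the bikaverin pair (4.37, limma adjusted p = 1.1e-06) and 1194 ± 112 and 22.4 ± 1.10 FPKM in the pRS416 pair (5.67, limma adjusted p = 1.2e-10). Its reads and those of TPO3 (1.48 and 2.14), which shares 90.8% identity with it, are uncertain. TPO4 fell in both (-0.90 and -0.74), and TPO1 rose in the pRS416 pair (1.32) with 0.01 in the bikaverin pair (difference called, limma adjusted p = 1.3e-05).

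Of 5 genes for enzymes that make SAM and methionine, 5 were called higher in the bikaverin pair, and 3 higher and 2 lower in the pRS416 pair. Those for SAM synthetase, SAM1 (log2 fold change 1.70 and 1.82) and SAM2 (1.53 and 2.27) rose in both pairs, by more than any of the 9 genes did. SAM4, for a methyltransferase that turns homocysteine and SAM into methionine, also rose in both (1.28 and 1.03). MET6, for methionine synthase, rose in the bikaverin pair (1.01) and fell in the pRS416 pair (-0.45, limma adjusted p = 0.00018; difference between pairs 1.46, limma adjusted p = 3.8e-06). MHT1, for the methyltransferase that uses methylmethionine and named here after its values were seen, likewise had 0.93 and -0.38 (limma adjusted p = 0.0088 for the pRS416 pair).

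**Figure D4:**
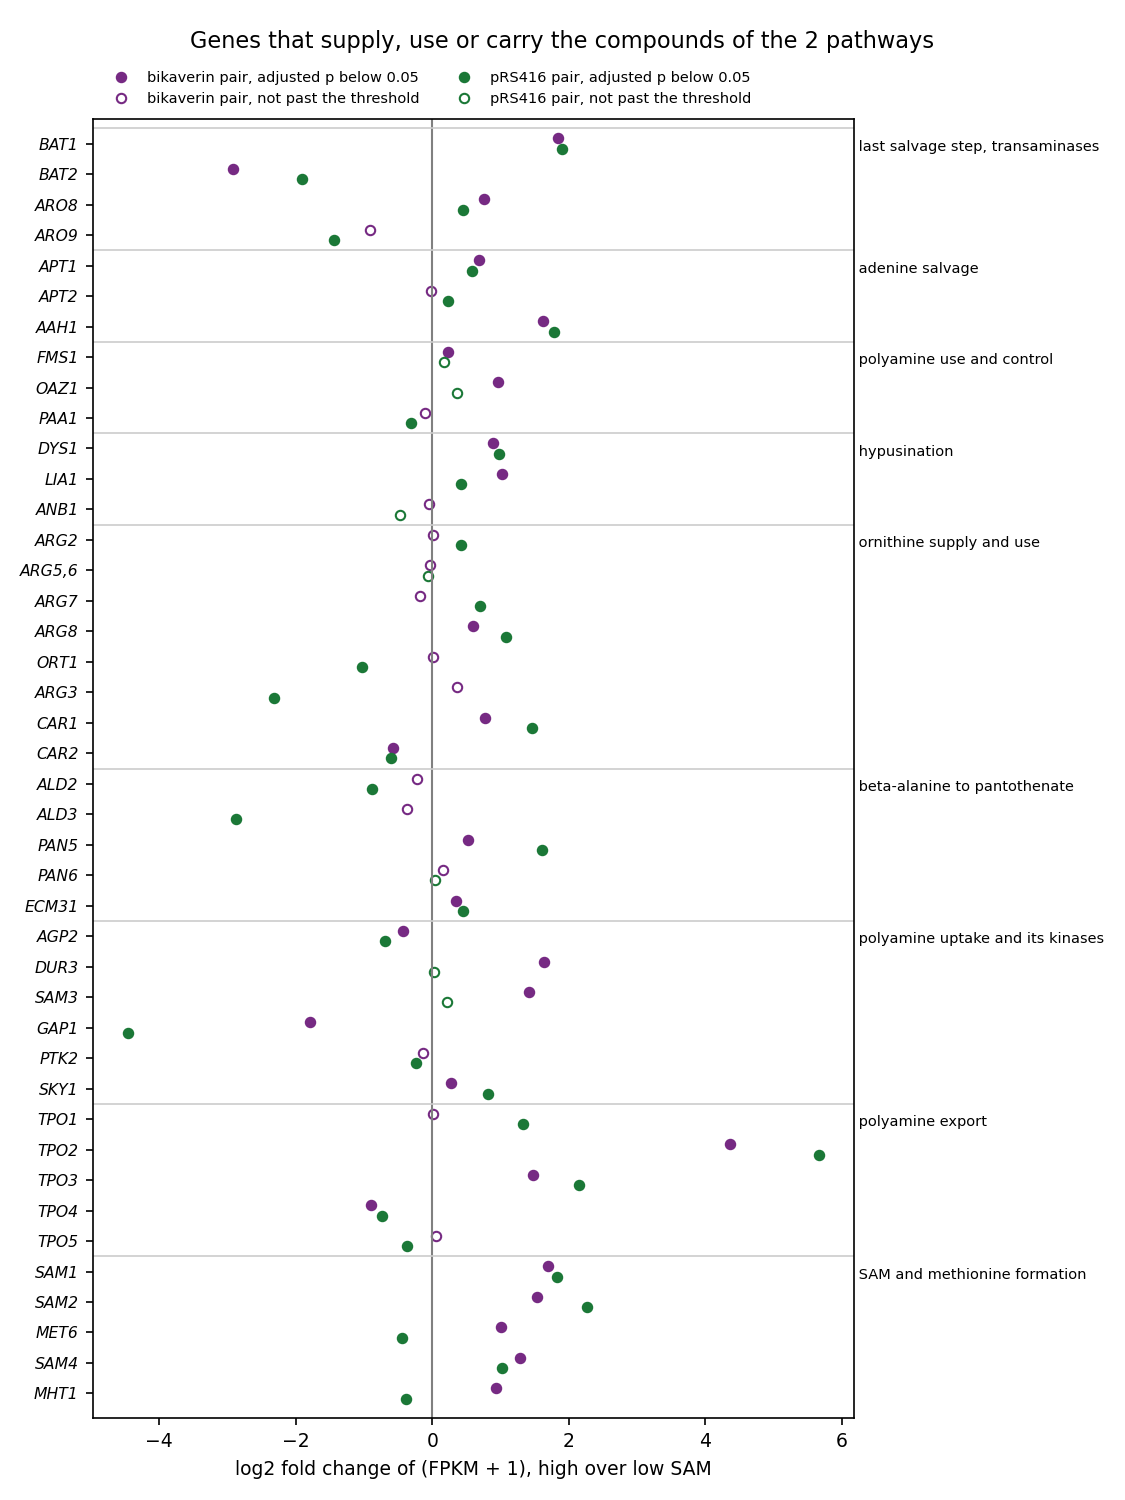
Log2 fold change on the log2(FPKM + 1) scale, high over low SAM, of the genes in the lists around the 2 pathways, for the bikaverin pair and the pRS416 pair, with filled points for an adjusted p below 0.05. TPO2 lies farthest to the right (4.37 and 5.67) and GAP1 farthest to the left in the pRS416 pair (-4.46).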

How the data were processed

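Per the labels' protocols, total RNA came from the RNAprep Pure Plant Plus kit and sequencing libraries from a kit named Fast RNA-seq Lib Prep Kit V2. The authors deposited FPKM values in 2 tables, 1 for each pair of strains. Per the submitters' processing notes the tools were featureCounts 1.5.0-p3, HISAT2 2.0.5 and fastp, and the build was R64. The sources used here do not give the strand setting, annotation or read filters, so reads of antisense transcripts cannot be told apart. Each column was assigned by the strain and replicate in its header. No table had columns of other samples.

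There are 6845 features in the bikaverin table and 6818 in the pRS416 table, 6756 of them shared after 257 and 737 identifiers were restyled. The 14 and 24 numbered unannotated transcripts were never joined between tables. Matching to RefSeq (5944 and 5934 features) gave lengths and coordinates. With these lengths, 97.3% to 98.8% of the values worth fewer than 1000 reads came within 0.02 of a whole number of reads, at scaling totals of 15.4 to 17.7 M and 40.7 to 45.1 M.

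A two-sided linear model with intensity trend (limma 3.58.1, R 4.3.3) was fitted to log2(FPKM + 1) of each table, over features averaging 1 FPKM or more, with Benjamini-Hochberg adjustment over all of them and a threshold of 0.05. The 9 genes all passed the filter. The difference between pairs used 12 libraries. This scale understates changes of low genes. Sequences came from the RefSeq R64 genome, and copies were sought with BLAST+ 2.17.0. The limma fit, and no other step, was tested on simulated counts. Named were all 9 genes, up to 3 genes of smallest p per list and pair, and the 3 features most like each gene. CYC7, PML1, MHT1 and PAN6 were added after their values were seen. Genes and lists were chosen with earlier results of these data known. Alternatives were quantile and upper-quartile scaling, a pseudocount of 0.1, no filter or a mean of at least 10 FPKM, the replicate number as a block, all 12 libraries in 1 fit, and leaving out each library.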

Additional observations from a re-analysis of the deposited data

Results flagged for a closer look

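Of the 9 genes, 5 changed with SAM level by an amount that differed between the strains with the bikaverin module and those with pRS416, by a test of the difference itself (bikaverin minus pRS416 log2 fold change, limma adjusted p over 6400 features, of which 56.8% were called). SPE3 had a difference of 1.16 (adjusted p = 4.9e-05), with 3 of 3 high-SAM libraries above all low-SAM libraries in the bikaverin pair and 3 of 3 below them in the pRS416 pair. UTR4 had -0.78 (0.00029), MDE1 0.35 (0.026), MRI1 0.32 (0.046) and SPE4 0.32 (0.046). The calls of MDE1, MRI1 and SPE4 were lost in 4, 9 and 10 of the 12 fits that left out a library. A count of 5 of 9 is close to the share of all features called, so it says little about these 9 in particular. Summed haploid-cell markers differed in the pRS416 pair (109 to 127 FPKM at high SAM and 913 to 956 FPKM at low SAM) and overlapped in the bikaverin pair (637 to 750 and 605 to 651 FPKM), where 4 of the 8 were called higher and 2 lower. In the bikaverin pair 28.8% of all features were called higher and 27.9% lower. Summed alpha-cell markers stood apart in both pairs, in opposite directions (1136 to 2069 and 491 to 611 FPKM at high and low SAM with the module, 63.6 to 74.6 and 966 to 1042 FPKM with pRS416). The part of these markers in the differences was not tested.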

How the results depend on the processing

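MEU1, UTR4, ADI1, SPE2, SPE3 and SPE4 kept their direction and call in each pair in all 13 alternative fits per pair. Replicate numbers did not pair the libraries: deviations of same-numbered libraries correlated at 0.03, -0.08 and 0.12 in the bikaverin pair and at -0.13, -0.03 and -0.14 in the pRS416 pair. With the replicate block, 6 of the 9 genes were called in the bikaverin pair and 8 in the pRS416 pair, and the bikaverin genes called lower numbered 1 (2 without it). The block left 2 of the 5 called differences between pairs, 1 of them positive (4 without it), and no filter on low values left 3 and 2. Leaving out 1 library gave 1 to 3 lower genes in the bikaverin pair, 2 to 5 called differences, of which 1 to 4 were positive and 1 to 3 negative. The cause of these changes was not tested. The SPE1 difference (-0.02) reversed to 0.028 with upper-quartile scaling and ranged from -0.069 to 0.033 on leaving out a library. Bikaverin values that were not called also changed sign on leaving out a library, APT2 (-0.02) ranging from -0.097 to 0.076, ANB1 (-0.05) from -0.23 to 0.12, ARG3 (0.36) from -0.068 to 0.58 and TPO1 (0.01) from -0.080 to 0.097. In the pRS416 pair DUR3 (0.02) became -0.0011 with quantile normalization and -0.027 with upper-quartile scaling, and ranged from -0.026 to 0.046 on leaving out a library. With all 12 libraries in 1 fit, MRI1 was called in the bikaverin pair (adjusted p = 0.038) and SPE1 was not called in the pRS416 pair, just above the threshold, nor was MHT1 (0.065). Counts over all features stayed within 1.5 times. Each value of the 9 genes rests on at least 286 reads, and each group on 3 libraries.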
